A study of Mus musculus with 8 samples.

Results

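AP-1 is a transcription factor made of paired proteins of the FOS and JUN families, and its genes belong with Egr1, Ier2 and Dusp1 to the immediate early genes, which cells switch on quickly when they receive a signal. The group described here held 10 genes: Fos, Fosb, Fosl1 and Fosl2 of the FOS family, Jun, Junb and Jund of the JUN family, and Egr1, Ier2 and Dusp1. They were chosen by name and function, and each was read from the probe set with the highest mean over the arrays among those that carry 1 gene symbol. Of the 10 genes, 9 had such a probe set, out of 18820 genes measured in the series. Fosl1 was left out, because the probe sets that name it also name Ccdc85b. The levels were measured in white adipose tissue of male C57BL/6 mice of mixed N and J substrain, fed a high fat diet for 5 weeks. The wildtype (WT) group held 4 mice. The Sel1l-/- group also held 4 mice, whose floxed Sel1l alleles were deleted by a Cre recombinase that the adiponectin promoter drives. That promoter is active in adipocytes, so the other cells of the tissue keep the gene, and the arrays read all cells together. The sources used here give neither the ages nor the fat depot, nor whether WT mice carried floxed alleles or Cre. Every array was of a different mouse, by the mouse codes.

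FOS proteins bind DNA only together with a partner, mostly a JUN protein, while JUN proteins can also pair among themselves. The dimers bind the AP-1 site, and JUN with ATF2 or other partners also binds sites close to the cyclic AMP response element. Growth factors, stress signals and MAP kinases raise Fos, Junb and Egr1 within minutes through serum response factor, ternary complex factors and CREB. Dusp1 encodes a phosphatase that switches p38, JNK and ERK off again. In adipose tissue, adipocytes, macrophages, endothelial cells and stromal cells can all express these genes, so a bulk value cannot tell a change in cell number from a change of RNA per cell.

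The promoters of the 5 genes on which the results turn are given first, because they show which of the known binding letters lie next to each start site. Of these genes only Jun passed the test between genotypes. Windows from 250 bases before to 50 after the RefSeq start site on GRCm38.p6 were found for 7 of the 10 genes, and Egr1, Fosl1 and Ier2 had none in the table. Capitals mark the TATA box (TATAAA), the GC box (GGGCGG), the CCAAT box, the cyclic AMP response element (TGACGTCA), its core (TGACG, which the full element contains) and the site known from the Jun promoter (TGACATCA), each on either strand. The core, the Jun site and the CCAAT box were added to the search after the windows had been seen. The Fos window lies at chr12:85473640-85473939 on the plus strand, Junb at chr8:84978699-84978998 on the minus strand, Jun at chr4:95052173-95052472 on the minus strand, Fosl2 at chr5:32136222-32136521 on the plus strand and Dusp1 at chr17:26508423-26508722 on the minus strand. All are written 5′ to 3′ in the direction of the gene.
Fos: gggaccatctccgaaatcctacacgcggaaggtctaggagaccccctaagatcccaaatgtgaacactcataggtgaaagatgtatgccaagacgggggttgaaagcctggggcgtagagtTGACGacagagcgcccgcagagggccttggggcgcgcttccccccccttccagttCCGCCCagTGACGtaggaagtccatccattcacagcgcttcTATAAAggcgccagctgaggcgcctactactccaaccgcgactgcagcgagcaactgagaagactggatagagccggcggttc
Junb: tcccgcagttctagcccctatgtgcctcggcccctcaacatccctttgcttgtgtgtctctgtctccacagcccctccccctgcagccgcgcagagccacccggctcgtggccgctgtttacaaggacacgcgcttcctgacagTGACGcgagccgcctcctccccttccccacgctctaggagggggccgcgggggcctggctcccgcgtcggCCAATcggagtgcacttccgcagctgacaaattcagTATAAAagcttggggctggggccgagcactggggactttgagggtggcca
Jun: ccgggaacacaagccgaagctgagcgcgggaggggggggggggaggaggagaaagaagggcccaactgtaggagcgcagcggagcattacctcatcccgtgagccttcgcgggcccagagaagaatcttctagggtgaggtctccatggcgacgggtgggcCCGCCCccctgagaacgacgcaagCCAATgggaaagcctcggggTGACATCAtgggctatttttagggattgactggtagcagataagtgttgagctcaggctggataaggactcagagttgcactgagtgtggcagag
Fosl2: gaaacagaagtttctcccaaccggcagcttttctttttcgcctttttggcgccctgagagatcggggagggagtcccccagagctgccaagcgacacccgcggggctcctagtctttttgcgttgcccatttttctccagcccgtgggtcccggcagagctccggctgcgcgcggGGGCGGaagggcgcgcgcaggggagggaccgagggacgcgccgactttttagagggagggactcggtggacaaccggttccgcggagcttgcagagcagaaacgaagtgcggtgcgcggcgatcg
Dusp1: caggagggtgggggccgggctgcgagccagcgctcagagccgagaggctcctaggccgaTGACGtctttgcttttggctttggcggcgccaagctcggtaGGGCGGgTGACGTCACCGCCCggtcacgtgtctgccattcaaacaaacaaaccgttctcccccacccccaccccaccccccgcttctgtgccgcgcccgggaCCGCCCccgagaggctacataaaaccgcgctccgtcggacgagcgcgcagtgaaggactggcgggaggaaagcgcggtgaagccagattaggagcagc

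The windows differed in their letters. Fos held 2 TGACG cores, starting at positions -129 and -66 from the start site, and a TATAAA at -33. Junb held 1 core at -106, a CCAAT at -36 and a TATAAA that begins at the annotated start, position 1. Jun held TGACATCA at -45 and CCAAT at -65. Dusp1 held a full TGACGTCA at -143 and a further core at -191, while Fosl2 held only a GGGCGG at -75 of the motifs searched. Fosb, whose window is not printed, held a core at -60 and GC boxes at -235, -230 and -46. The GC box was not particular to Fosl2 and Fosb, since Fos held it at -74, Jun at -89 and Dusp1 at -150, -135 and -48. Of all 32851 promoter windows in the table, 20.8% held the core, 1.79% the full element, 3.62% the Jun site, 13.6% the TATA box, 35.7% the GC box and 37.4% the CCAAT box. The AP-1 site itself (TGACTCA or TGAGTCA, in 5.2% of windows) and the CArG box of serum response factor (in 1.63%) were searched on both strands and were in none of the 7 windows. A match is letters in a window, not a measured binding site, and elements further upstream lie outside these windows.

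Over the whole series, the median log2 intensity of an array lay between 6.05 and 6.14 and arrays correlated at 0.982 to 0.994. Sel1l itself checked the labels. Its log2 intensity was 10.57 ± 0.07 over the 4 WT arrays and 9.78 ± 0.21 over the 4 Sel1l-/- arrays (mean ± SD), without overlap (limma adjusted p = 0.0109). Adipocyte markers were bright, as the tissue label requires, with a mean log2 intensity of 12.30 to 12.85 over the 9 measured of 10. The number of arrays limits the precision of every comparison here.

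Among the 9 genes, 1 was lower in Sel1l-/- adipose tissue, Jun, and none was higher at an adjusted p under 0.05 over all genes (limma). At an unadjusted p under 0.05, 1 of the 9 was higher and 2 were lower, against 7.15% and 7.85% of all genes. Of all genes tested, 1.04% were called higher and 0.685% lower, and 1 call among 9 is not read as a result about the group. Log2 fold changes (Sel1l-/- minus WT) were positive for 5 genes and negative for 4, with a median of 0.14 against 0.00 over all genes. The measured FOS family genes Fos, Fosb and Fosl2 had positive values, as did Junb and Egr1. Jun, Jund, Ier2 and Dusp1 had negative ones, so the JUN family held both signs.

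Jun, the founding JUN subunit and the partner of most FOS proteins, carried the 1 call. Its log2 intensity (probe set 10514466) read 10.04, 9.77, 10.03 and 9.76 in WT 1 to 4 and 9.31, 9.53, 9.16 and 9.46 in Sel1l-/- 1 to 4. All 4 Sel1l-/- arrays lay below all 4 WT arrays, as was so for 5.07% of all genes. The mean fell 1.45-fold, from 9.90 ± 0.16 to 9.36 ± 0.17 on the log2 scale (SD, n = 4). The log2 fold change of -0.54 had a standard error of 0.11 and a 95% confidence interval of -0.78 to -0.29 (limma adjusted p = 0.0472). The call lay close to the threshold. It was lost with the replicate number as a block (log2 fold change -0.54, limma adjusted p = 0.0700) and in each of the 8 fits without 1 array, with adjusted p from 0.0516 without WT 4 to 0.137 without WT 1. The size moved less than the call: without 1 array the log2 fold change ran from -0.59 to -0.47. Set mouse by mouse, the Sel1l-/- value was below the WT value of the same replicate number by 0.73, 0.24, 0.88 and 0.29.

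The mouse codes in the labels also hold a letter and a number, whose meaning the sources used here do not give. Mice of the same replicate number never share either. The log2 difference of Jun within letter F, the only letter with both genotypes (WT 4 against Sel1l-/- 1 and 2), was -0.34, and the log2 differences within the code numbers 5, 7 and 9 were -0.74, -0.38 and -0.51. Blocking on the code letter gave an adjusted p of 0.616, and blocking on the code number 0.136 (limma).

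**Figure D1:**
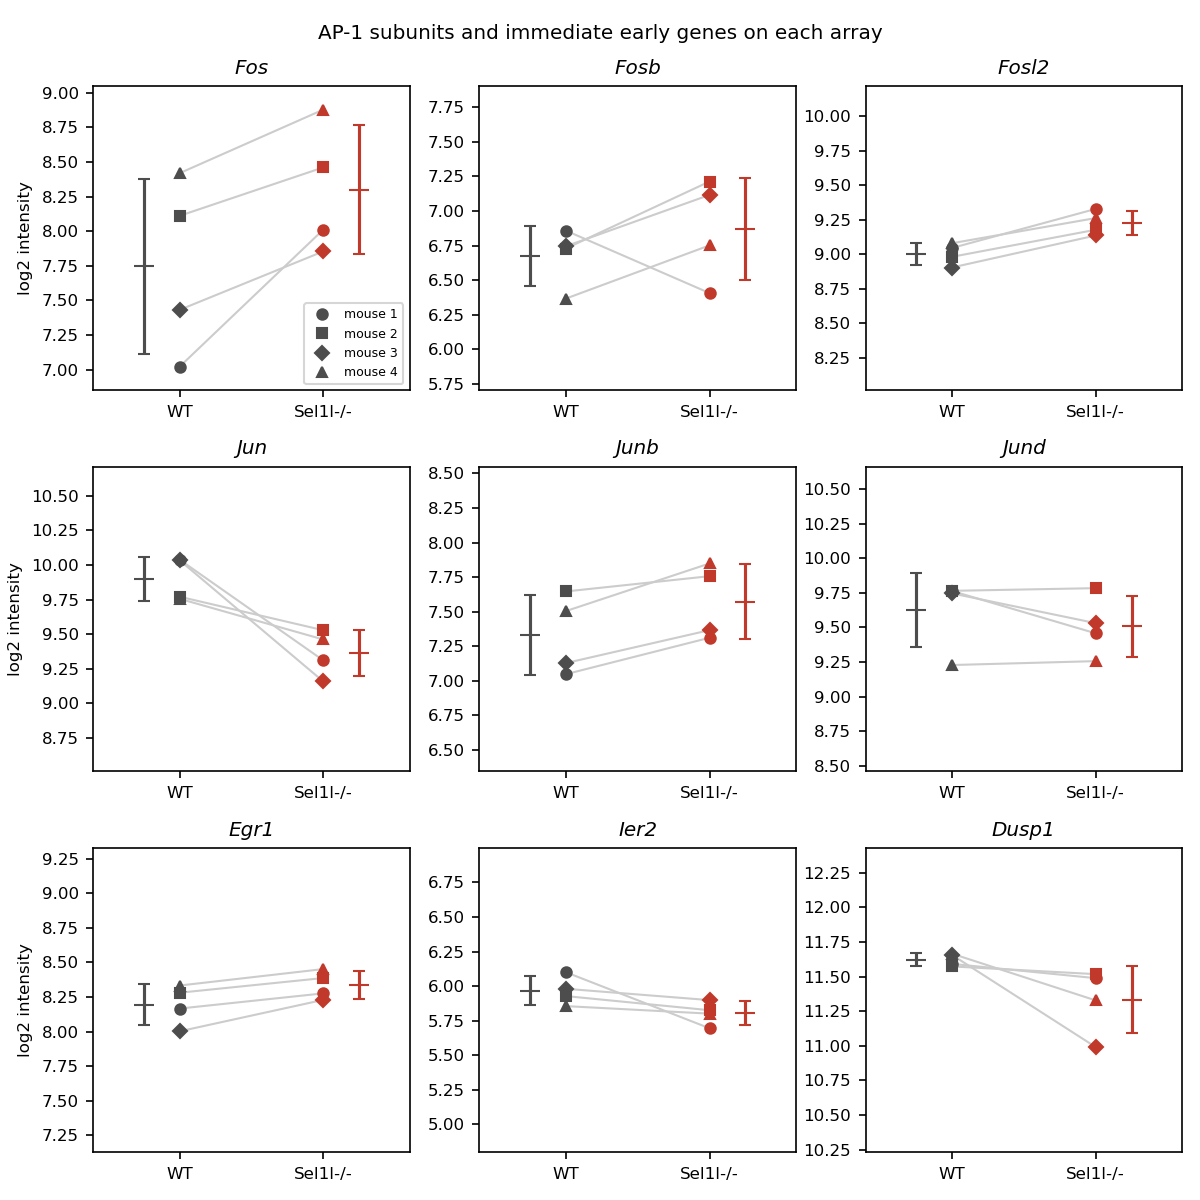
Log2 intensity of each gene on the 8 arrays (vertical axis, each panel spanning the same range of log2 units), WT in grey and Sel1l-/- in red; marker shapes give the mouse number, grey lines join mice of the same number, and bars give the mean ± SD of the 4 arrays. Jun has all Sel1l-/- arrays below all WT arrays, Fosl2 has them all above, and Fos spreads from 7.02 to 8.88 with overlapping groups.

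Of the JUN family, Junb and Jund did not pass the test. Junb, which can pair with FOS proteins and often restrains Jun, read 7.05, 7.65, 7.13 and 7.50 in WT 1 to 4 and 7.31, 7.76, 7.37 and 7.85 in Sel1l-/- 1 to 4 (probe set 10580282). The groups overlapped, and mice 2 and 4 were the higher ones of both genotypes. The log2 fold change was 0.24 (standard error 0.17, 95% confidence interval -0.15 to 0.63, limma adjusted p = 0.580). Jund, a JUN subunit that most cells express steadily, read 9.76, 9.76, 9.75 and 9.23 in WT and 9.46, 9.78, 9.53 and 9.26 in Sel1l-/- mice (probe set 10572456). WT 4 and Sel1l-/- 4 were the lowest of their groups. Its log2 fold change was -0.12 (standard error 0.15, limma adjusted p = 0.777). Blocking on the code letter turned it to 0.39, a value that rests on WT 4 alone against Sel1l-/- 1 and 2.

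Fos, the prototype of rapidly induced transcription factors, had the largest mean difference of the 9 genes and did not pass the test. It read 7.02, 8.11, 7.43 and 8.42 in WT 1 to 4 and 8.01, 8.46, 7.85 and 8.88 in Sel1l-/- 1 to 4 (probe set 10397346). The groups overlapped widely, since WT 2 and WT 4 lay above Sel1l-/- 1 and Sel1l-/- 3. WT arrays averaged 7.75 ± 0.64 and Sel1l-/- arrays 8.30 ± 0.46 (SD, n = 4), and the log2 fold change 0.56 had a 95% confidence interval of -0.20 to 1.31 (limma adjusted p = 0.498). The pooled SD within groups, 0.56, lay at percentile 97.9 of all genes tested, so Fos varied more between mice of 1 genotype than nearly all genes did.

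Same-numbered mice went together for Fos. The Sel1l-/- mouse was the higher of each pair, by 0.99, 0.35, 0.42 and 0.46, and with the replicate number as a block the standard error fell from 0.33 to 0.11 (95% confidence interval 0.28 to 0.83, limma adjusted p = 0.0579). That value does not pass the threshold. Within letter F (1 WT and 2 Sel1l-/- mice) the difference was -0.18, and within the code numbers 5, 7 and 9 it was 0.13, 0.33 and 1.03, so the direction of the Fos difference depended on which mice were set against each other.

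Fosl2, a FOS family member known as a regulator of leptin in adipocytes, varied little among mice of 1 genotype (pooled SD 0.08). Its log2 intensity was 9.05, 8.98, 8.90 and 9.08 in WT and 9.33, 9.18, 9.14 and 9.26 in Sel1l-/- mice (probe set 10520862). All 4 Sel1l-/- arrays lay above all 4 WT arrays, as in 5.22% of all genes. The log2 fold change was 0.22 (standard error 0.07, 95% confidence interval 0.07 to 0.38), and the adjusted p of 0.159 did not pass (limma). Fosb, a FOS subunit linked to sustained stimulation, read 6.86, 6.73, 6.75 and 6.37 in WT and 6.41, 7.21, 7.12 and 6.75 in Sel1l-/- mice (probe set 10560481). The groups overlapped, and the 2 lowest arrays were WT 4 and Sel1l-/- 1. Its log2 fold change was 0.20 (standard error 0.18, limma adjusted p = 0.682).

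Of the immediate early genes outside AP-1, none passed the test. Egr1, a zinc finger factor induced alongside Fos, read 8.17, 8.28, 8.00 and 8.33 in WT and 8.28, 8.39, 8.23 and 8.45 in Sel1l-/- mice (probe set 10454782). The Sel1l-/- mouse was higher in each same-numbered pair, by 0.11 to 0.23, but the groups overlapped and the log2 fold change was 0.14 (standard error 0.09, limma adjusted p = 0.518). Ier2, a small nuclear protein, had log2 intensities of 5.86 to 6.10 in WT and 5.70 to 5.90 in Sel1l-/- mice (probe set 10580183). These lie close to the array medians, and the log2 fold change was -0.16 (standard error 0.07, limma adjusted p = 0.347).

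Dusp1, the MAP kinase phosphatase, read 11.59, 11.57, 11.66 and 11.67 in WT and 11.49, 11.52, 10.99 and 11.33 in Sel1l-/- mice (probe set 10449284). The Sel1l-/- arrays all lay below the WT arrays, as in 5.07% of all genes. Sel1l-/- 1 and 2 lay only slightly below, and Sel1l-/- 3 was the lowest. The WT mice were close together (SD 0.05) and the Sel1l-/- mice were not (SD 0.24). The log2 fold change was -0.29 (standard error 0.11, 95% confidence interval -0.55 to -0.03, limma adjusted p = 0.276).

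**Figure D2:**
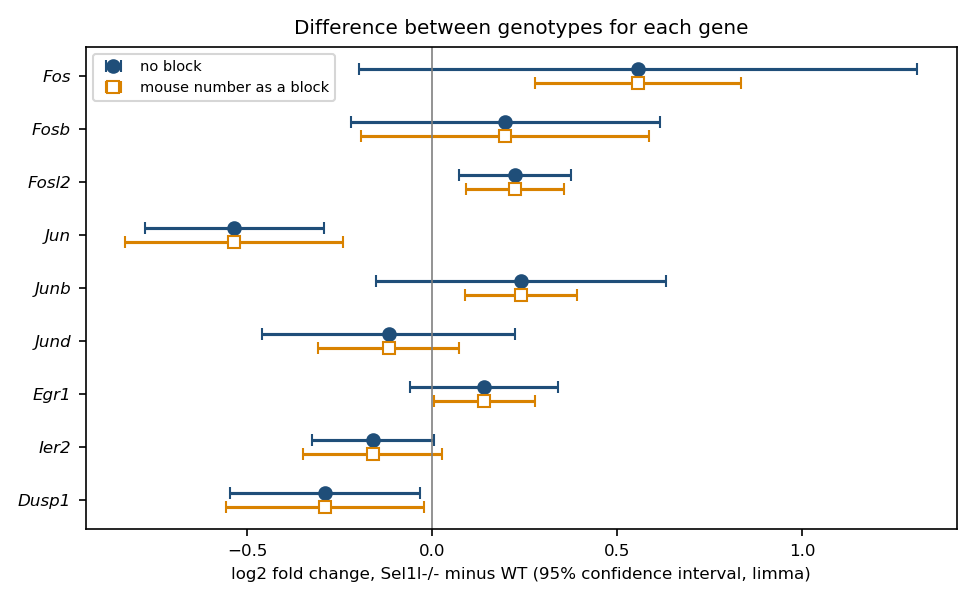
Log2 fold change of each gene (horizontal axis, Sel1l-/- minus WT) with its 95% confidence interval from limma, without a block (filled circles) and with the mouse number as a block (open squares). The estimates are the same in both fits; the interval of Fos narrows from -0.20 to 1.31 to 0.28 to 0.83 with the block, and that of Jun widens slightly.

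Fos, Fosl2, Junb and Egr1 were higher in the Sel1l-/- mouse of all 4 pairs (4 of 9 genes, against 14.7% of all genes), and Jun, Ier2 and Dusp1 were lower in all 4 (3 of 9, against 15.3%). Fosb was higher in 3 pairs and Jund in 2. With the replicate number as a block, none of the 9 genes passed the test in either direction, where 1.9% of all genes were called higher and 1.95% lower (limma).

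Among mice of 1 genotype, the 9 genes did not vary as 1 block. The deviations of the 8 mice from their group means gave Pearson's r over 0.8 for 4 of the 36 gene pairs and under -0.5 for 6. By r, Fos and Junb went together most closely (r = 0.917, exact permutation p = 0.0260 within groups, Benjamini-Hochberg adjusted 0.354). Their Spearman's rho was 0.762 (exact p = 0.0625, adjusted 0.450), and r was 0.954 without the 2 mice farthest from the median for Fos. By rho, Fosb and Ier2 were closest (rho = 0.857, exact p = 0.0052, adjusted 0.188). Their r was 0.819 (exact p = 0.0104, adjusted 0.354), or 0.488 without the 2 mice farthest for Fosb. Fosb with Fosl2 had the lowest r, -0.775 (exact p = 0.0573, adjusted 0.354, rho = -0.714, exact p = 0.0781, adjusted 0.469, r = -0.40 without 2 mice). Fos with Egr1 gave r = 0.822 (exact p = 0.0365, adjusted 0.354; rho = 0.833, exact p = 0.0382, adjusted 0.450; r = 0.917 without 2 mice). Fos with Jun gave r = -0.180 (exact p = 0.677, adjusted 0.841; rho = -0.238, exact p = 0.615, adjusted 0.819; r = 0.315 without 2 mice). None of the 36 pairs passed after adjustment, by r or by rho, and same-numbered mice deviated together over all genes, so the 8 deviations may not be independent.

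In the plain values, mice 2 and 4 of both genotypes were high and mice 1 and 3 low for Fos, Junb and Egr1. Jun had mice 1 and 3 as the higher ones in WT, and mice 2 and 4 in the Sel1l-/- group. The mean of 10 macrophage markers moved with Fos in WT mice: it was 9.88, 10.52, 10.01 and 10.55 in WT 1 to 4, and 10.15, 10.52, 10.52 and 10.90 in Sel1l-/- 1 to 4. All 10 markers had positive log2 fold changes (median 0.31), and 0 passed the test, at an adjusted p or at an unadjusted p under 0.05 (limma). The 2 with the smallest p were Mrc1, the mannose receptor, at 0.36 (adjusted p = 0.400) and Cd68, a lysosomal protein, at 0.50 (0.496). The summed level of the list, as log2, ran from 13.82 to 14.44 in WT and from 14.04 to 14.73 in Sel1l-/- mice. The mean of the fibroblast and progenitor markers also had mice 2 and 4 as the higher ones in WT, at 10.24, 10.64, 10.39 and 10.41 in WT 1 to 4. That of the adipocyte markers had them as the lower ones, at 12.85, 12.74, 12.83 and 12.62. The part of macrophages or of other cells in the Fos values was not tested.

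**Figure D3:**
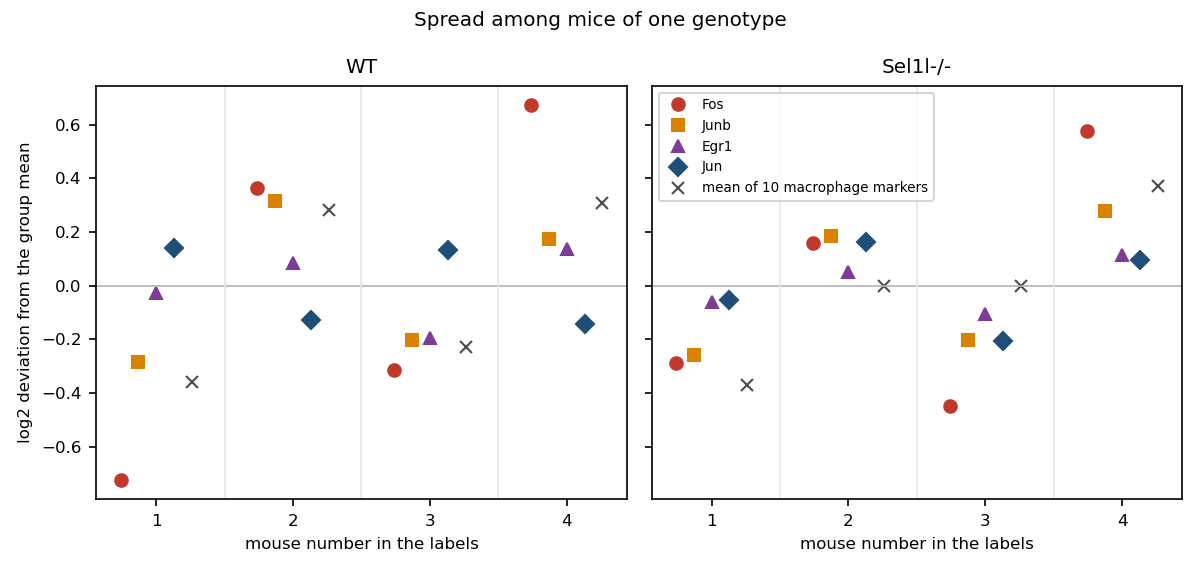
Deviation of each mouse from its group mean in log2 units (vertical axis) for Fos, Junb, Egr1, Jun and the mean of 10 macrophage markers, by mouse number (horizontal axis), WT on the left and Sel1l-/- on the right. Fos, Junb and Egr1 lie above 0 in mice 2 and 4 and below 0 in mice 1 and 3 of both groups, with Fos from -0.73 to 0.67.

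The RNA levels of 2 AP-1 subunits on 1 array can be set against each other by subtracting the Jun value from that of a possible partner. This compares RNA of the whole tissue, not subunit proteins in 1 cell. The zero of such a difference has no meaning, because probe sets differ in brightness. A fixed offset in brightness cancels in its shift between groups, but compression of dim values does not. These pairs were chosen after their values were seen and get no test. Fosl2 minus Jun was -0.99, -0.79, -1.13 and -0.68 in WT 1 to 4 and 0.02, -0.35, -0.02 and -0.20 in Sel1l-/- 1 to 4, a mean shift of 0.76 in log2. Junb minus Jun averaged -2.57 ± 0.44 over WT and -1.79 ± 0.16 over Sel1l-/- arrays (SD, n = 4), a shift of 0.77. The groups did not overlap in either difference, and both share the Jun values, which alone did not overlap. Fosl2 alone did not overlap either, in the other direction, so the separation of Fosl2 minus Jun was already given by the 2 genes.

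The other genes that early signals induce held no call either. Of 30 other immediate early genes, 0 passed in the fit without a block (limma), while at an unadjusted p under 0.05, 4 were higher and 7 lower, against 7.15% and 7.85% of all genes. The median log2 fold change was -0.08. Rhob, a small GTPase, went from 9.94 ± 0.11 to 9.55 ± 0.15 (SD, n = 4; log2 fold change -0.40, limma adjusted p = 0.0793), and Klf2, a zinc finger factor strongly expressed in endothelium, from 8.77 ± 0.22 to 8.24 ± 0.19 (-0.53, adjusted p = 0.0957). Neither passed with the replicate block (adjusted p = 0.0824 and 0.0795). The 30 genes held 7 whose Sel1l-/- arrays lay all below the WT arrays and 2 with all above, against 5.07% and 5.22% of all genes.

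With the replicate number as a block, 3 of the 30 passed, 2 higher and 1 lower. In that fit 1.9% of all genes were called higher and 1.95% lower. The 3 are named here after their values were seen. Egr2, an Egr1 relative, had a log2 fold change of 0.80 (limma adjusted p = 0.0374 with the block and 0.518 without). Its values read 7.55, 8.51, 7.12 and 9.26 in WT and 8.27, 9.08, 8.46 and 9.85 in Sel1l-/- mice, so that mice 2 and 4 were again the high ones. Gadd45g, a stress-induced growth arrest gene, had 0.63 (adjusted p = 0.0330 with the block, 0.230 without). Nr4a2, an orphan nuclear receptor, had -0.40 (0.0467 with the block, 0.184 without). Atf3, a stress-induced bZIP factor that pairs with JUN, was chosen here for its likeness to Fos. It read 8.78, 9.96, 8.93 and 10.63 in WT and 9.28, 10.14, 9.74 and 11.16 in Sel1l-/- mice, with a log2 fold change of 0.51 that did not pass (limma adjusted p = 0.703).

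No upstream or partner gene passed without a block. Of 13 bZIP partners and AP-1 antagonists, 13 SRF, ternary complex and CREB factors, and 17 MAP kinase cascade genes, 0 passed the test (limma). At an unadjusted p under 0.05 the higher and lower counts were 2 and 0, 1 and 1, and 1 and 3, beside the same 7.15% and 7.85% of all genes. Their median log2 fold changes were 0.03, -0.02 and -0.03. Nfil3, a bZIP repressor of the circadian output, had 0.72 (limma adjusted p = 0.240) with all Sel1l-/- arrays above WT, as in 5.22% of all genes. Mafk, a small MAF protein, had 0.26 (limma adjusted p = 0.331). Among the signal-dependent factors, Atf1, a CREB relative, had 0.13 (adjusted p = 0.315) and Elk4, a ternary complex factor, -0.13 (0.327). In the MAP kinase cascade, Mapk12, the p38 gamma kinase, had -0.41 (adjusted p = 0.121, and 0.0310 with the replicate block), and Mapk10, the JNK3 kinase, -0.22 (0.219) at a log2 level of about 4, below the lower quartile of the arrays.

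Nor did any gene downstream of the signal pass without a block. Of 16 feedback inhibitors of MAP kinases, 0 passed (limma), and their median log2 fold change was -0.04. At an unadjusted p under 0.05, 0 were higher and 2 lower, against 7.15% and 7.85% of all genes. Dusp10, a JNK and p38 phosphatase, had -0.42 (adjusted p = 0.139) and Dusp14 -0.34 (0.255). With the replicate block 1 member passed, where 1.9% of all genes were called higher. It was Dusp4, a nuclear MAP kinase phosphatase, with 0.37 (limma adjusted p = 0.0429 with the block and 0.679 without), named after its value was seen. Of 17 measured genes with known AP-1 regulation, 0 passed in either fit (limma), with a median of 0.03. Without the block 2 were higher and 1 lower at an unadjusted p under 0.05, beside the same 7.15% and 7.85%. Ptgs2, the inducible cyclooxygenase, had -0.69 (limma adjusted p = 0.134). Mt2, a metallothionein, had 0.28 (limma adjusted p = 0.171) with all Sel1l-/- arrays above WT, as in 5.22% of all genes.

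**Figure D4:**
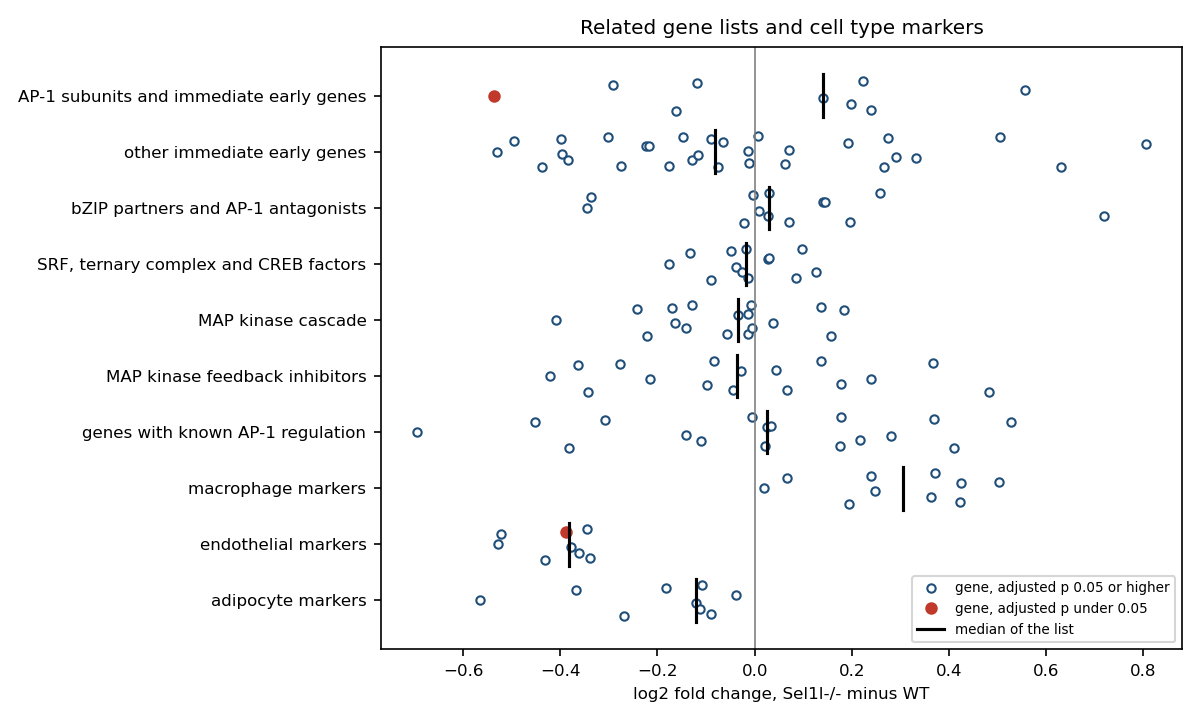
Log2 fold change (horizontal axis, Sel1l-/- minus WT) of each measured gene in the AP-1 and immediate early group, in related lists and in markers of 3 cell types; filled red points passed at an adjusted p under 0.05, and black bars give list medians. Jun is the red point of the first list at -0.54, and the 8 endothelial markers all lie to the left of 0.

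Markers of the tissue's cell types were followed in the same fit. All 8 endothelial markers had negative log2 fold changes (median -0.38), and 8 were lower at an unadjusted p under 0.05 (against 7.85% of all genes). The test called 0.685% of all genes lower and 1 of the 8, Pecam1, an endothelial adhesion molecule, at -0.39 (limma adjusted p = 0.0290). With the replicate block 3 endothelial markers passed, Pecam1, Tek and Robo4, where 1.95% of all genes were called lower. The call of Pecam1 was lost in each of the 8 fits without 1 array, where 0 endothelial markers passed. The mean of the list was 10.13 to 10.40 in WT and 9.60 to 9.98 in Sel1l-/- mice, without overlap, and its summed level, as log2, was 13.37 to 13.60 and 12.86 to 13.21. All 9 adipocyte markers were negative as well (median -0.12), with Adipoq at -0.56 (adjusted p = 0.0753, 0.0204 with the block) and Car3 at -0.37 (0.0599, 0.0330 with the block). The Sel1l-/- mice had the smaller values for the endothelial list and for Jun, Klf2, Rhob and Dusp1, which were picked from the lower genes. Of the 9 genes of the group 5 had positive log2 fold changes, as had 11 of the 30 other immediate early genes, such as Egr2 at 0.80. A negative median was not particular to the endothelial list, since among the cell type lists only the macrophage markers had a positive one. Deviations from the group mean in Sel1l-/- 1 to 4 were 0.13, -0.02, 0.13 and -0.24 for the endothelial list. For Jun they were -0.05, 0.16, -0.21 and 0.10. In WT 1 to 4 they were 0.0008, -0.13, 0.14 and -0.02 for the list, and 0.14, -0.13, 0.13 and -0.14 for Jun. The part of endothelial cells in the values of Jun, Klf2, Rhob and Dusp1 was not tested.

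The 6 mural and smooth muscle markers had a median log2 fold change of -0.52, with 5 negative and 1 positive. At an unadjusted p under 0.05, 3 of the 6 were lower and 1 higher, against 7.85% and 7.15% of all genes. The test called 1 of them lower, Tagln, an actin-binding protein, at -0.59 (limma adjusted p = 0.0476), where 0.685% of all genes were called lower. Of 7 lymphocyte markers (median -0.19, 6 negative and 1 positive) 1 was called lower, Cd2, a T cell adhesion molecule, at -0.65 (limma adjusted p = 0.0456). The other T cell markers did not pass, with Cd3e at -0.105, Cd3g at -0.19, Cd8a at -0.08 and Cd4 at 0.09. In the fits without 1 array, no mural marker passed except 1 without Sel1l-/- 1, and no lymphocyte marker except 1 without Sel1l-/- 2. None of 5 neutrophil, 8 fibroblast and progenitor, 6 mesothelial, 6 skeletal muscle or 2 erythrocyte markers passed on all 8 arrays without a block (limma). Their named members, the 2 of each list with the smallest p, ranged in log2 fold change from -0.72 to -0.08. The first was Alas2, an erythroid heme enzyme (limma adjusted p = 0.206), and the last Dcn, a matrix proteoglycan (0.556). Not all members were negative: 2 of the 8 fibroblast and progenitor markers (median -0.05) and 3 of the 6 skeletal muscle markers (median -0.001) were positive. At an unadjusted p under 0.05 the neutrophil, fibroblast, mesothelial, skeletal muscle and erythrocyte lists held 0, 1, 1, 0 and 1 lower members. None was higher, against 7.85% lower and 7.15% higher over all genes. With the replicate block, Wt1 of the mesothelial list passed at -0.44 (adjusted p = 0.0382, and 0.108 without), Rgs5 of the mural list at -0.44 (0.0330, and 0.0652 without) and Cd79a of the lymphocyte list at -0.64 (0.0496, and 0.416 without), the last 2 beside Tagln and Cd2. In the block fit 1.95% of all genes were called lower. Without WT 2 and without a block, 1 erythrocyte marker was called lower.

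The genes most like the group in their pattern among mice were found by correlating each gene's deviations from the group means with the mean deviation of the 9 genes. The 8 highest were Dspp, Gm884, Tmem253, Slc1a2, Lamp3, Ninj2, Dnajb7 and Zan, with Pearson's r of 0.950 to 0.980 over the 8 arrays. They were picked as the highest of all genes, so the size of r carries no weight of its own. Their log2 intensities ran from 2.91 to 6.40. All lay below the array medians except Tmem253, which lay around them. None differed between genotypes past the threshold (lowest limma adjusted p = 0.3).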

How the data were processed

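The deposited values are log2 probe set intensities from 1-colour arrays of 8 mice. The authors made these log2 values with RMA (background correction, quantile normalization, probe summary), per the submitters' processing notes, with no version or build. Their range, 1.72 to 13.9, fits a log2 scale. RMA hides shifts shared by most transcripts and compresses dim probe sets. Of 35556 probe sets, 21218 carried 1 gene symbol, 1881 several and 12457 none. Each gene took its brightest probe set, giving 18820 genes, with no filter.

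The 2 genotypes were set against each other by limma's lmFit and eBayes (version 3.58.1, R 4.3.3; 2.60 prior degrees of freedom). Tests were two-sided, p-values were adjusted by Benjamini-Hochberg across all genes, and adjusted values under 0.05 were called. Correlations used 576 exact permutations of mice within groups, whose smallest p is 0.0017. The code was tested on simulated data. Figures used Python 3.11.15 and matplotlib 3.10.9.

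The members and lists were chosen with earlier results of these data known. Named genes were the 9 members, Sel1l, and in each other list up to 4 genes past the threshold or, failing that, the 2 with the smallest p. Same-numbered mice correlated over all genes at 0.518, 0.107, 0.363 and 0.524 in their deviations. Each is over 0.1, so the numbers were taken to pair the mice. This comes from the same data, and no label states it. Mice of different numbers correlated at -0.489 to 0.328. WT 2 with Sel1l-/- 4 (0.327) and WT 3 with Sel1l-/- 1 (0.328) were also over 0.1, and WT 2 was closer to Sel1l-/- 4 than to Sel1l-/- 2. The pairing is thus uncertain, and so is every result with the replicate block. Alternatives were 3 blocks, leaving out each array, 2 scalings, 2 filters on dim genes, 2 probe set rules, eBayes with trend, and array weights.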

Additional observations from a re-analysis of the deposited data

Results flagged for a closer look

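Jund was flagged because 1 WT mouse stood far from the others. WT 4 read 9.23, while the other WT mice read 9.75 to 9.76, and the gap took up 0.966 of the group's range, over Dixon's critical value for 4 samples. Chance flags about 1 in 20 groups, and 18 groups were examined. Sel1l-/- 4 was also the lowest of its group, at 9.26.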

How the results depend on the processing

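Of 169 values of the 9 genes under 19 alternatives, 154 kept their direction and side of the threshold, 12 (all of Jun) lost the call, and 3 turned sign. The sign turned when the code letter was the block, for Fos (-0.18), Jund (0.39) and Egr1 (-0.0011). With the replicate block, the letter block, the number block and every probe set on its own, 0 of the 9 genes were called lower, as in each fit without 1 array (0 to 0), where 1 was called otherwise. Over all genes 324 were called, but 725 with the replicate block, 20 and 11 with the code letter and the code number as blocks, 566 with array weights, and 100 to 336 without 1 array. Fewer arrays or degrees of freedom also leave less power. Median centring moved the median of all genes by -0.04 and changed no call among the 9. For the members, the replicate block changed the call of Jun only.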
